A study of Caenorhabditis elegans with 8 samples.

Results

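The glutathione S-transferase (GST) family of *Caenorhabditis elegans* was followed across 4 chromatin mutants, together with *gcs-1*, the gene for the rate-limiting enzyme of glutathione synthesis. Its members were all genes on the array whose symbol begins with gst-, gsto-, gstk- or gcs-. There were 50 such genes, with 51 probes, among 19441 genes and 20401 probes on the array. The choice used the symbols only and no measured value. Every symbol of this kind in the RefSeq annotation of the worm (50, assembly WBcel235) was found on the array.

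The study examined how the heterochromatin protein 1 homologs HPL-1 and HPL-2 and the linker histone HIS-24 act together on gene expression. Whole worms of the N2 background were compared as 3 double mutants and 1 triple mutant, each with 2 biological replicates of 80 to 100 pooled animals raised at 21°C. The double mutants carried the labels *hpl-1*; *hpl-2*, then *hpl-2*; *his-24*, then *hpl-1 his-24*. The triple mutant was labelled *hpl-2*; *hpl-1 his-24*. The alleles were *hpl-1(tm1624)*, *hpl-2(tm1489)* and *his-24(ok1024)* in the paper's summary of its arrays. For the *hpl-1*; *hpl-2* double mutant, its list of phenotypes names *hpl-1(n4317)* instead, so the *hpl-1* allele of that genotype is not certain. The worms were at L4 and the young adult stage by their labels, or L4 larvae as the paper has it. Since *hpl-1 his-24* is the only genotype without *hpl-2* in its label, the other genotypes were set against it first, and no wild type or single mutant was analysed here. All levels below are log2 signals relative to the 75th percentile of the same array, so that a difference of 1 is a 2-fold change, and they can be compared between arrays for 1 gene but not between genes. In whole worms, fewer cells of a type and less RNA per cell cannot be told apart.

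The labels were first checked against the deleted genes. The *his-24* probe had a mean level of 0.38 in *hpl-1*; *hpl-2* and did not rise well above background wherever *his-24* is in the label, being at least 126-fold lower there. The *hpl-2* probe K01G5.2a was lower on every array with *hpl-2* in its label (-1.22 to -0.78) than in *hpl-1 his-24* (0.43 and 0.52). For *hpl-1* the probe went against the labels of 4 arrays. It was not well above background in *hpl-1*; *hpl-2*, but its levels were -0.36 and -0.30 where the label was *hpl-1 his-24* and -0.60 and -0.53 where it was the triple mutant. In *hpl-2*; *his-24*, a genotype without *hpl-1* in its label, they were -0.49 and -0.65. Genotype names below therefore stand for the labels of the arrays, and no difference is ascribed to *hpl-1*. A signal counts as well above background by the scanner software's own test. Replicates of *hpl-2*; *his-24* were wider apart than those of the other genotypes: over the tested members, the SD of their difference was 0.37, against 0.10 to 0.18 in each of the others. Both arrays of *hpl-2*; *his-24* lay on 1 slide with a scan day of its own, so slide and day cannot be told apart from that genotype.

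GSTs join the tripeptide glutathione to reactive or foreign compounds, and some reduce peroxides. The conjugates are carried out of the cell by ABC transporters of the MRP family. Most of the worm's GSTs are cytosolic enzymes of the gst- series, while the gsto- genes encode omega-class and the gstk- genes kappa-class enzymes. Several family members, *gst-4* and *gcs-1* among them, are targets of SKN-1, the worm homolog of the Nrf2 transcription factor, and GFP reporters of *gst-4* and *gcs-1* are widely used readouts of oxidative stress in the worm's intestine and epidermis.

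Of the 50 genes, 47 were tested, meaning that in 1 or more genotypes both arrays had their probe well above background, and 46 were above background on all 8 arrays. The exception among the tested genes was *gst-25*, which was measured on 1 of the 2 arrays of *hpl-1 his-24*. *gst-17* and *gst-18* were not well above background on any array, and *gst-37* only on 1 array of *hpl-2*; *his-24*. No level or change is given for these 3 genes.

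The family did not move in 1 direction. A gene passed where limma's two-sided test gave an adjusted p below 0.05 over the 17086 identifiers tested, and a count of members is read against the percentage of all identifiers that passed. In *hpl-1*; *hpl-2*, 14 members (29.8% of 47) were higher and 15 (31.9%) lower than in *hpl-1 his-24*, where 20.2% of all identifiers were higher and 18.8% lower. For the triple mutant, 14 (29.8%) were higher and 13 (27.7%) lower than in *hpl-1 his-24*, with 22.9% and 19.1% of all identifiers. In *hpl-2*; *his-24*, 12 (25.5%) were higher and 19 (40.4%) lower than in *hpl-1 his-24*, beside 33.5% and 32.1% of all identifiers. Without replicate 1 of *hpl-1 his-24*, the number passing in *hpl-1*; *hpl-2* went from 29 to 19 (40.4%, beside 24.8% of all identifiers). In the triple mutant it went from 27 to 17 (36.2%) without replicate 2 of *hpl-1 his-24* or replicate 2 of the triple mutant, beside 24.5% and 25.9% of all identifiers. All 3 comparisons rest on 1 pair of arrays, that of *hpl-1 his-24*, and their counts are not independent of each other. The median log2 fold change of the 47 members was 0.11 in *hpl-1*; *hpl-2*, 0.03 in the triple mutant, and -0.10 for *hpl-2*; *his-24*, beside 0.03, 0.07 and 0.03 over all identifiers.

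**Figure D1:**
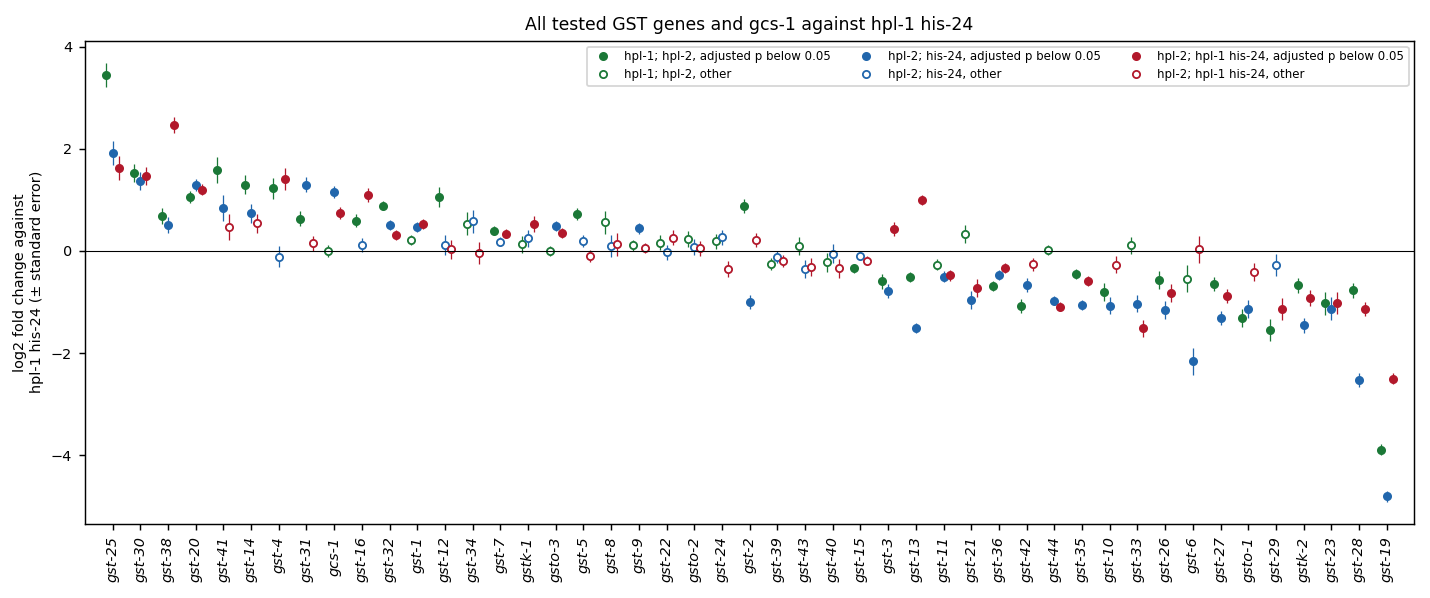
Log2 fold change of each of the 47 tested genes (horizontal axis, ordered by the mean of the 3 comparisons) against *hpl-1 his-24*, with standard errors. Filled points passed an adjusted p of 0.05; *gst-19* lies lowest, down to -4.80, and *gst-25* highest, up to 3.45, while the genes between them spread to both sides of 0.

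Among the genotypes with *hpl-2* in their label, the triple mutant had 9 members (19.1%) higher and 11 (23.4%) lower than *hpl-1*; *hpl-2*, where 11.7% of all identifiers were higher and 10.9% lower. It had 15 (31.9%) higher and 6 (12.8%) lower than *hpl-2*; *his-24*, beside 27.6% and 23.3% of all identifiers. This split moved with the scaling, to 14 higher and 13 lower after quantile normalization and 17 higher and 12 lower in the authors' normalized values. The split of the 17086 identifiers moved as well, from 4723 higher and 3982 lower to 3808 and 5382 after quantile normalization and 3941 and 5072 in the authors' values. *hpl-2*; *his-24* had 7 members (14.9%) higher and 19 (40.4%) lower than *hpl-1*; *hpl-2*, where 23.5% of all identifiers were higher and 28.0% lower. With the study's threshold of a log2 fold change beyond 1.5 added, 4 or 5 members remained in each comparison. For the 3 comparisons with *hpl-1 his-24* the percentage of all identifiers past that threshold was 8.16 in *hpl-1*; *hpl-2*, 16.5 in *hpl-2*; *his-24* and 8.21 in the triple mutant. For the triple mutant it was 3.93 against *hpl-1*; *hpl-2* and 10.9 against *hpl-2*; *his-24*, and for *hpl-2*; *his-24* compared with *hpl-1*; *hpl-2* it was 8.02. Over all comparisons, 40 members (85.1%) passed in at least 1 and 7 in none, beside 84.6% of all identifiers that passed in at least 1. *gst-13* and *gst-19* (4.26%) passed in all 6, as did 3.06% of all identifiers, so neither share sets the family apart. The number of members passing between the triple mutant and the *hpl-1*; *hpl-2* double mutant, 20 on all arrays, depended most on single arrays. Fewer passed without any 1 array of these genotypes or of *hpl-1 his-24*, and more without either array of *hpl-2*; *his-24*. The share of all identifiers that passed moved the same way in each of these fits.

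**Figure D2:**
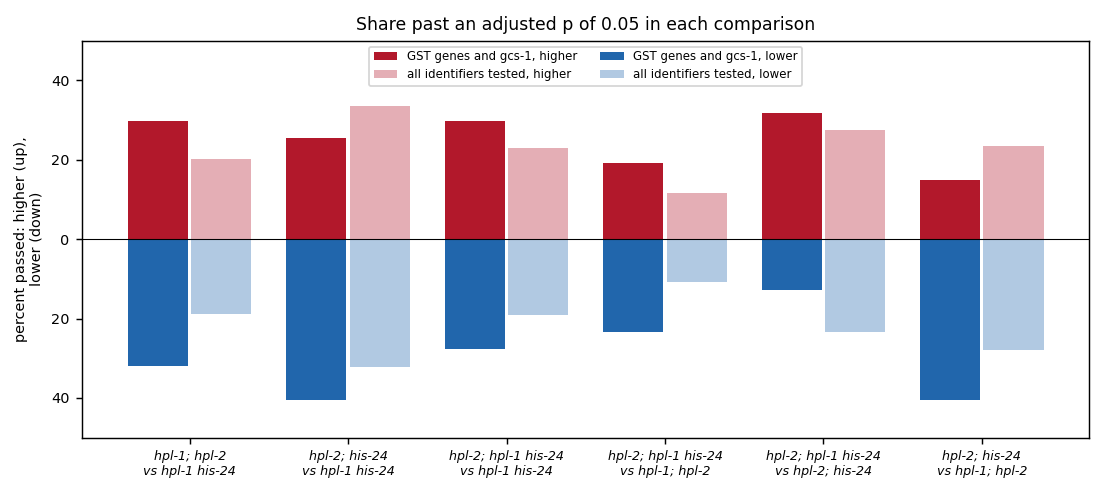
Percent of the 47 tested family members (dark bars) and of all 17086 identifiers (pale bars) that passed in each of the 6 comparisons, higher upwards and lower downwards. The dark bars are taller than the pale ones on both sides in 3 comparisons, those among *hpl-1*; *hpl-2*, *hpl-1 his-24* and the triple mutant, and not in the comparisons with *hpl-2*; *his-24*.

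*gcs-1* (F37B12.2, chromosome II), which makes glutathione's precursor gamma-glutamylcysteine, differed with the *his-24* and *hpl-2* labels together. Its levels were -0.72 and -0.82 in *hpl-1 his-24* and -0.63 and -0.90 in *hpl-1*; *hpl-2*. They were 0.36 and 0.41 in *hpl-2*; *his-24* and -0.06 and -0.0044 in the triple mutant. Thus both genotypes labelled with *hpl-2* as well as *his-24* lay above the other 2 without overlap. The log2 fold change against *hpl-1 his-24* was 1.15 in *hpl-2*; *his-24* (standard error 0.12, adjusted p = 0.000291 from limma), a 2.23-fold rise. In the triple mutant the rise over *hpl-1 his-24* was 0.74 (adjusted p = 0.00338). Between *hpl-1 his-24* and *hpl-1*; *hpl-2* no difference was detected, and the 95% interval of the log2 fold change ran from -0.28 to 0.28.

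*gst-4*, *gst-20*, *gst-24* and *gst-38* are in the study's lists of genes raised in its mutants, which were drawn up on arrays of this experiment, so their direction here is no independent evidence. Only the comparisons between mutants were made here. *gst-4* (K08F4.7, chromosome IV), the oxidative stress reporter gene, had levels of -0.27 and -0.21 in *hpl-1 his-24*. It was at 0.94 and 1.03 in *hpl-1*; *hpl-2* and at 1.18 and 1.16 in the triple mutant. In *hpl-2*; *his-24* its replicates were at -0.69 and -0.01, on both sides of *hpl-1 his-24*. So *gst-4* was high in 2 of the 3 genotypes labelled with *hpl-2* and in the lower range in the third. Against *hpl-1 his-24* it rose by 1.22 in *hpl-1*; *hpl-2* (standard error 0.21, adjusted p = 0.00493) and by 1.41 in the triple mutant (adjusted p = 0.0027). The log2 fold change in *hpl-2*; *his-24* was -0.11 with a 95% interval of -0.62 to 0.40, and the triple mutant had 2.86 times the *gst-4* level of *hpl-2*; *his-24* (adjusted p = 0.00216). Without replicate 2 of *hpl-2*; *his-24* the value of -0.11 became -0.45 and passed. *gst-4* and *gcs-1* thus took different orders over the genotypes: *gcs-1* was highest in *hpl-2*; *his-24*, and *gst-4* did not rise there past the test.

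*gst-3*, *gst-2* and *gst-4* lie in this order on chromosome IV, with no more than 5 coding genes between neighbours, and each of the 3 had its own pattern. *gst-2* (K08F4.6) was highest in *hpl-1*; *hpl-2*, with levels of -3.93 and -3.80, and lowest in *hpl-2*; *his-24*, with -5.93 and -5.55. In *hpl-1 his-24* it was at -4.73 and -4.76 and in the triple mutant at -4.52 and -4.56. From *hpl-1*; *hpl-2* to *hpl-2*; *his-24* the change was -1.87 (standard error 0.14, adjusted p = 0.000229), while the triple mutant and *hpl-1 his-24* differed by 0.21, which did not pass (adjusted p = 0.263). *gst-3* (K08F4.11) fell in both double mutants labelled with *hpl-2*, by 0.60 in *hpl-1*; *hpl-2* and by 0.78 in *hpl-2*; *his-24*, and was 0.43 above *hpl-1 his-24* in the triple mutant.

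*gst-38* (F35E8.8, chromosome V) was the member that set the triple mutant apart most plainly on the high side. Its levels there were 2.64 and 2.67. They were 0.15 and 0.23 in *hpl-1 his-24*, 0.82 and 0.94 in *hpl-1*; *hpl-2*, and 0.47 and 0.93 in *hpl-2*; *his-24*. All 6 arrays of the double mutants therefore lay below 1. The triple mutant was 5.52-fold above *hpl-1 his-24* (log2 fold change 2.47, standard error 0.16, adjusted p = 7.98e-05), 3.42-fold above *hpl-1*; *hpl-2* (adjusted p = 0.000661) and 3.88-fold above *hpl-2*; *his-24* (adjusted p = 0.000324). Over *hpl-1 his-24*, the smaller rises of 0.69 in *hpl-1*; *hpl-2* and of 0.51 for *hpl-2*; *his-24* were each lost when single arrays were left out, the first without any 1 of its 4 arrays and the second without either replicate of *hpl-1 his-24* or replicate 2 of *hpl-2*; *his-24*.

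*gst-13* (T26C5.1, chromosome II) differed between every pair of genotypes. It was at 2.22 and 2.14 in the triple mutant and at 1.16 and 1.22 in *hpl-1 his-24*. In *hpl-1*; *hpl-2* it was at 0.61 and 0.74 and in *hpl-2*; *his-24* at -0.37 and -0.26. The order thus ran from the triple mutant down to *hpl-2*; *his-24*, with no overlap at any step. Its log2 fold change was 2.49 between these 2 genotypes (standard error 0.10, adjusted p = 2.07e-05), a 5.63-fold difference. The smallest step, from *hpl-1 his-24* to *hpl-1*; *hpl-2*, was -0.52 (adjusted p = 0.0072), and without replicate 2 of *hpl-1 his-24* it was -0.49 and no longer passed.

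**Figure D3:**
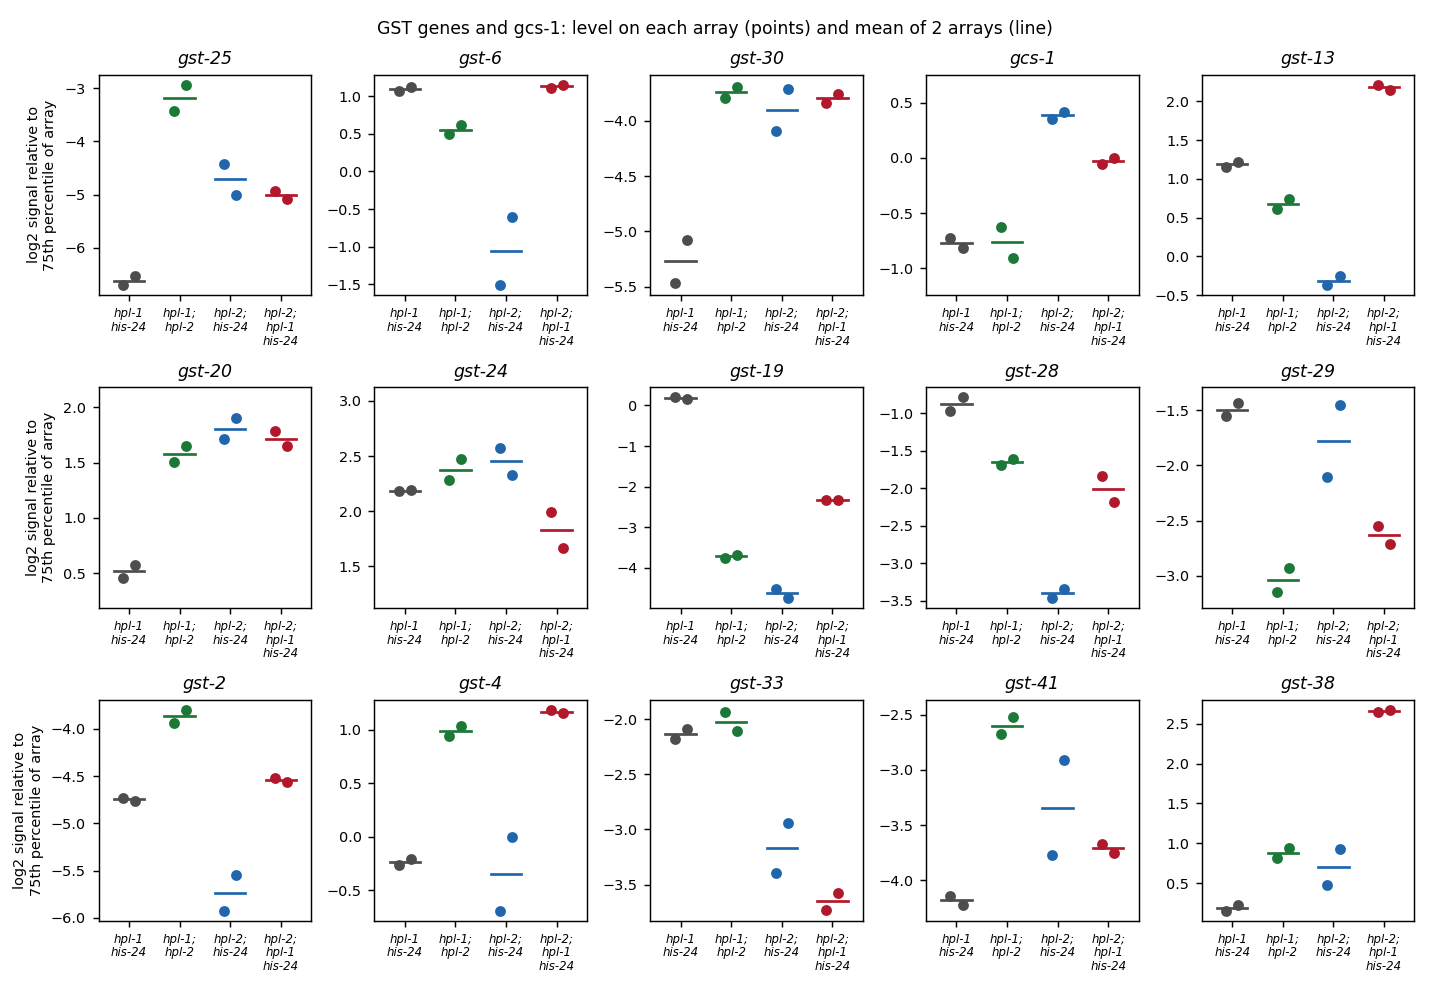
Level of the 15 genes described one by one, on each array (points) and as the mean of the 2 arrays (line), by genotype; each panel has its own vertical axis of log2 signal relative to the array's 75th percentile. *gst-38* and *gst-13* are highest in the triple mutant, *gcs-1* in *hpl-2*; *his-24*, *gst-25*, *gst-2* and *gst-41* in *hpl-1*; *hpl-2*, and *gst-19* and *gst-28* in *hpl-1 his-24*.

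Many GST genes lie near other GST genes, above all on chromosome II. When neighbours were counted as 1 group where no more than 5 coding genes separate them, the largest groups were 2 of 9 genes each, both on chromosome II. The genome build of the array's probe positions is not named, so the gene order was taken from the WBcel235 annotation and no positions are given. In each group neighbouring genes differed in direction. Whether near-identical family members share signal at a probe was not tested, since the probe sequences were not used here.

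The first group runs *gst-20*, *gst-24*, *gst-15*, *gst-14*, *gst-12*, *gst-16*, *gst-19*, *gst-17* and *gst-18*, of which the last 2 were not tested. Of the 7 others, 4 were higher and 2 lower in *hpl-1*; *hpl-2* than in *hpl-1 his-24*, where 20.2% and 18.8% of all identifiers were. In *hpl-2*; *his-24* and in the triple mutant it was 2 higher and 1 lower, beside 33.5% and 32.1% of all identifiers in the first and 22.9% and 19.1% in the second. The gene that was lower in all 3 was *gst-19* (F37B1.8), which showed the largest change of the family. *gst-19* stood at 0.20 and 0.15 in *hpl-1 his-24*. It was at -3.75 and -3.68 in *hpl-1*; *hpl-2*, at -4.51 and -4.75 in *hpl-2*; *his-24*, and at -2.33 and -2.32 in the triple mutant. All 6 arrays labelled with *hpl-2* were therefore far below the other 2, and their order had no overlap. The fall was 27.9-fold in *hpl-2*; *his-24* (log2 fold change -4.80, standard error 0.11, adjusted p = 1.42e-06), 14.8-fold in *hpl-1*; *hpl-2* animals (adjusted p = 4.55e-06) and 5.65-fold in the triple mutant (adjusted p = 1.87e-05). The triple mutant was thereby 2.62-fold above *hpl-1*; *hpl-2* (adjusted p = 0.00038).

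*gst-20* (Y48E1B.10), at the other end of this group, moved the opposite way. Its levels were 0.46 and 0.57 in *hpl-1 his-24*. On the 6 arrays labelled with *hpl-2* they lay between 1.51 and 1.90. The rise was 1.06 in *hpl-1*; *hpl-2* (standard error 0.12, adjusted p = 0.000696), 1.29 in *hpl-2*; *his-24* animals (adjusted p = 0.000174) and 1.20 in the triple mutant (adjusted p = 0.000427). No difference passed among the 3 genotypes labelled with *hpl-2*, where the 95% intervals lay within -0.37 and 0.51. *gst-24* (F37B1.1), next to it, was at 2.18 and 2.19 in *hpl-1 his-24*, at 2.29 and 2.47 in *hpl-1*; *hpl-2*, at 2.57 and 2.33 in *hpl-2*; *his-24*, and at 2.00 and 1.67 in the triple mutant. It passed in no comparison with *hpl-1 his-24*. The triple mutant lay below *hpl-2*; *his-24* by 0.62 (adjusted p = 0.0143) and below *hpl-1*; *hpl-2* by 0.54 (adjusted p = 0.044), and the second call was lost under quantile normalization, in the authors' normalized values and without 5 of the 8 arrays in turn, the first without triple mutant replicate 2.

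The 4 genes that lie between *gst-24* and *gst-19* differed in where they were highest. *gst-14* was highest in *hpl-1*; *hpl-2* (-1.39 and -1.38) and lowest in *hpl-1 his-24* (-2.72 and -2.66), a rise of 1.30 (adjusted p = 0.00214). *gst-12* was likewise highest in *hpl-1*; *hpl-2* (-1.24 and -1.34), where it rose by 1.06 (adjusted p = 0.00577), and was 1.02 lower again in the triple mutant (adjusted p = 0.0123). *gst-16*, by contrast, was highest in the triple mutant, at -2.05 and -2.24 against -3.31 and -3.16 in *hpl-1 his-24*, a rise of 1.09 (adjusted p = 0.00124). *gst-15* varied little, with genotype means within 0.34 of each other.

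The second group runs *gst-26*, *gst-27*, *gst-28*, *gst-29*, *gst-39*, *gst-31*, *gst-32*, *gst-34* and *gst-35*. Against *hpl-1 his-24*, 2 of its 9 genes were higher and 5 lower in *hpl-1*; *hpl-2*, where 18.8% of all identifiers were lower. In *hpl-2*; *his-24* it was 2 higher and 4 lower (32.1% of all identifiers lower), and in the triple mutant 1 higher and 5 lower (19.1%). *gst-26*, *gst-27*, *gst-28* and *gst-35* were lower in all 3. *gst-31* and *gst-32*, which lie between *gst-29* and *gst-35*, were the genes that rose.

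*gst-28* (Y53F4B.31) changed most in this group. It was at -0.97 and -0.79 in *hpl-1 his-24*, at -1.69 and -1.61 in *hpl-1*; *hpl-2*, at -3.46 and -3.34 in *hpl-2*; *his-24*, and at -1.84 and -2.19 in the triple mutant. The fall in *hpl-2*; *his-24* was 5.74-fold (log2 fold change -2.52, standard error 0.14, adjusted p = 2.64e-05). The falls in the triple mutant and in *hpl-1*; *hpl-2* were 2.20-fold (adjusted p = 0.00129) and 1.71-fold (adjusted p = 0.00649). *gst-29* (Y53F4B.32), its neighbour, was instead lowest in *hpl-1*; *hpl-2*. Its levels there were -3.15 and -2.93, against -1.55 and -1.44 in *hpl-1 his-24*, -2.55 and -2.71 in the triple mutant, and -2.11 and -1.45 in *hpl-2*; *his-24*. The fall in *hpl-1*; *hpl-2* was 1.54 (standard error 0.22, adjusted p = 0.00214) and that in the triple mutant 1.13 (adjusted p = 0.00732). Without triple mutant replicate 2, the second fall was 1.05 and no longer passed. The replicates of *hpl-2*; *his-24* reached the level of *hpl-1 his-24* in 1 case, and the difference of -0.28 did not pass (adjusted p = 0.288). Without that replicate, number 2, it was -0.61 and passed.

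*gst-27* fell by 1.30 in *hpl-2*; *his-24* (adjusted p = 0.000354), by 0.89 in the triple mutant and by 0.64 in *hpl-1*; *hpl-2*. *gst-26* followed the same order, with falls of 1.16, 0.83 and 0.57. *gst-31* rose by 1.30 in *hpl-2*; *his-24* and by 0.63 in *hpl-1*; *hpl-2*, while its value of 0.15 in the triple mutant did not pass. *gst-39* stayed within 0.25 over the 4 genotype means and passed in no comparison.

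**Figure D4:**
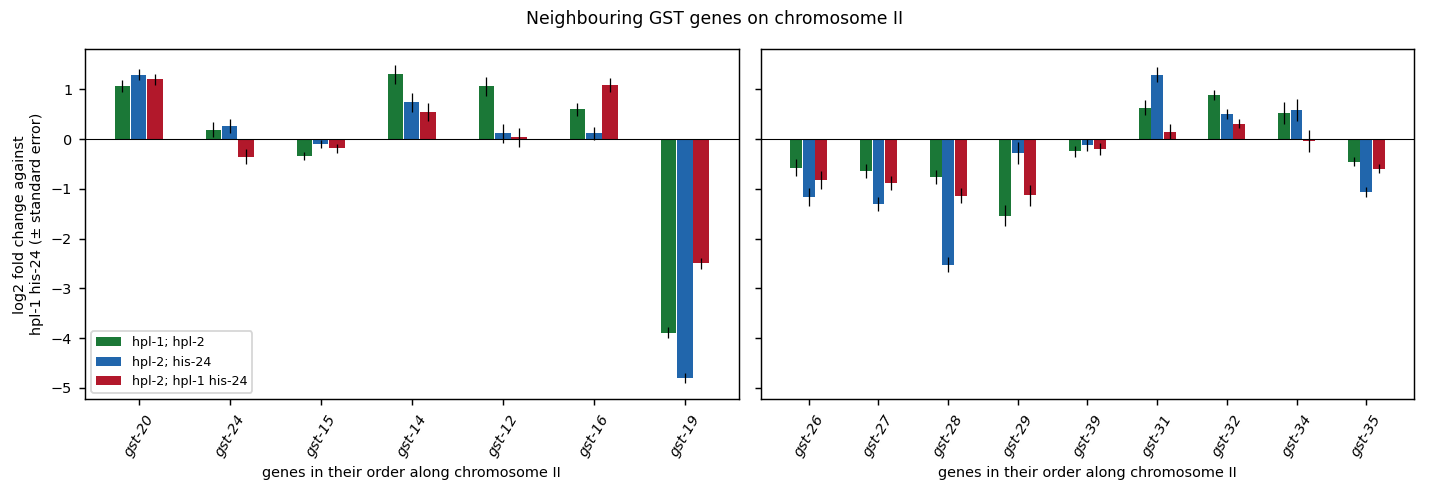
Log2 fold change against *hpl-1 his-24*, with standard errors, of the tested genes of the 2 largest groups of neighbouring GST genes on chromosome II, in their order along the chromosome. In the left group *gst-20* is raised and *gst-19* reduced in all 3 genotypes; in the right group *gst-26* to *gst-28* are reduced and *gst-31* and *gst-32* raised or near 0.

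A smaller group on chromosome II holds *gst-6*, *gst-7*, *gst-8* and *gst-9*. *gst-6* (F11G11.3) was reduced in *hpl-2*; *his-24*, to -1.51 and -0.60. In *hpl-1 his-24* it was at 1.07 and 1.13, in *hpl-1*; *hpl-2* at 0.50 and 0.61, and in the triple mutant at 1.11 and 1.16. The fall in *hpl-2*; *his-24* was 4.46-fold against *hpl-1 his-24* (log2 fold change -2.16, standard error 0.27, adjusted p = 0.00071), and the triple mutant did not differ from *hpl-1 his-24* detectably (0.03, adjusted p = 0.93). The lower level in *hpl-1*; *hpl-2* passed only in fits from which 1 or both arrays of *hpl-2*; *his-24* were left out. *gst-7*, *gst-8* and *gst-9* stayed within 0.56 of *hpl-1 his-24* in every genotype.

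The remaining genes past the fold threshold are scattered. *gst-25* (F37F2.3, chromosome I) was the most raised member. It was at -6.71 and -6.54 in *hpl-1 his-24*, where 1 of the 2 arrays was above background. In *hpl-1*; *hpl-2* it was at -3.43 and -2.93, in *hpl-2*; *his-24* at -4.42 and -5.01, and in the triple mutant at -4.93 and -5.08. All 6 arrays labelled with *hpl-2* were higher than the others, and the *hpl-1*; *hpl-2* arrays higher again. The rise in *hpl-1*; *hpl-2* was 3.45 (standard error 0.24, adjusted p = 0.000106), and like the other rises over *hpl-1 his-24* its size rests on a level that was above background on 1 array. In *hpl-2*; *his-24* it was 1.91 (adjusted p = 0.000719) and in the triple mutant 1.62 (adjusted p = 0.00256).

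*gst-30* (ZK546.11, chromosome II) also rose in all 3 genotypes labelled with *hpl-2*. From -5.47 and -5.08 in *hpl-1 his-24* it went to between -4.10 and -3.69 on the other 6 arrays. The rises were 1.53 in *hpl-1*; *hpl-2* (standard error 0.18, adjusted p = 0.000891), 1.37 in *hpl-2*; *his-24* animals (adjusted p = 0.000816) and 1.48 in the triple mutant (adjusted p = 0.00105). Like *gst-20*, it showed no difference past the test among these 3 genotypes.

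*gst-41* (R13D7.7, chromosome V) was at -4.14 and -4.22 in *hpl-1 his-24* and at -2.68 and -2.52 in *hpl-1*; *hpl-2*, a rise of 1.58 (standard error 0.26, adjusted p = 0.00416). In *hpl-2*; *his-24* it was at -3.78 and -2.91 and in the triple mutant at -3.67 and -3.75. Its replicates in *hpl-2*; *his-24* spanned the triple mutant, and every other verdict for this gene changed in at least 1 fit without a single array. *gst-33* (C02A12.1, chromosome V) was lower in both genotypes that carry *hpl-2* and *his-24* in their label. It was at -2.18 and -2.09 in *hpl-1 his-24*, at -1.93 and -2.11 in *hpl-1*; *hpl-2*, at -3.40 and -2.94 in *hpl-2*; *his-24*, and at -3.73 and -3.57 in the triple mutant. Compared with *hpl-1 his-24*, the triple mutant fell by 1.51 (standard error 0.17, adjusted p = 0.000735) and the *hpl-2*; *his-24* animals by 1.03 (adjusted p = 0.00204), and *hpl-1*; *hpl-2* differed by 0.11, which did not pass.

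*gst-44* (F13A7.10, chromosome V) had the same order as *gst-33*, with smaller changes. It was at -2.17 and -2.13 in *hpl-1 his-24*, at -2.19 and -2.08 in *hpl-1*; *hpl-2*, at -3.15 and -3.09 in *hpl-2*; *his-24*, and at -3.17 and -3.30 in the triple mutant. The falls were 0.97 in *hpl-2*; *his-24* animals (adjusted p = 0.000258) and 1.09 in the triple mutant (adjusted p = 0.000295). *gcs-1* had the same split of genotypes in the opposite direction. *gst-44* was singled out for this after its values were seen.

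The omega-class genes did not move together. *gsto-1* (C29E4.7, chromosome III), whose enzyme is known to help the worm withstand oxidative stress, was at 0.38 and 0.49 in *hpl-1 his-24* and at 0.08 and -0.02 in the triple mutant. It was lower in *hpl-1*; *hpl-2* (-0.92 and -0.84) and in *hpl-2*; *his-24* (-0.98 and -0.44), with falls of 1.31 (adjusted p = 0.00176) and 1.14 (adjusted p = 0.00176). The triple mutant lay above both, by 0.91 and 0.74. *gsto-2* (C02D5.3) passed in no comparison, and its genotype means stayed within 0.24, the narrowest range of the family. *gsto-3* (K10F12.4), the 1 member with 2 probes, was highest in *hpl-2*; *his-24* on both probes, with a rise of 0.49 over *hpl-1 his-24* on the brighter one (adjusted p = 0.0056). On the dimmer probe, which was not in the fit, the means of these genotypes were -3.56 and -4.55, a difference of 0.99.

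The kappa-class genes differed from each other as well. *gstk-2* (D2024.7, chromosome IV), whose product is known as a mitochondrial enzyme, was at -0.61 and -0.46 in *hpl-1 his-24* and fell by 1.46 in *hpl-2*; *his-24* (standard error 0.15, adjusted p = 0.000324), by 0.92 in the triple mutant and by 0.68 in *hpl-1*; *hpl-2*. *gstk-1* (ZK1320.1, chromosome II), whose product is known as peroxisomal, passed only as a rise of 0.53 in the triple mutant over *hpl-1 his-24* (adjusted p = 0.0393).

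*gst-42* (D1053.1, chromosome X) encodes a zeta-class enzyme, maleylacetoacetate isomerase of tyrosine breakdown. It was at 1.13 and 1.18 in *hpl-1 his-24*, 0.92 and 0.87 in the triple mutant, 0.31 and 0.68 in *hpl-2*; *his-24*, and 0.05 and 0.11 in *hpl-1*; *hpl-2*. The fall in *hpl-1*; *hpl-2* was 1.08 (adjusted p = 0.00118) and that in *hpl-2*; *his-24* animals 0.66 (adjusted p = 0.00504), and the triple mutant was 0.81 above *hpl-1*; *hpl-2* (adjusted p = 0.00757). *gst-43* passed in no comparison. *gst-10* (Y45G12C.2, chromosome V), which conjugates the lipid peroxidation product 4-hydroxynonenal, fell by 0.80 in *hpl-1*; *hpl-2* and by 1.07 in *hpl-2*; *his-24* animals (adjusted p = 0.0114 and 0.00201), and its value of -0.27 in the triple mutant did not pass. Thus *gsto-1*, *gst-42* and *gst-10* fell in both double mutants labelled with *hpl-2*, and the change in the triple mutant did not pass for any of them. The triple mutant was above *hpl-2*; *his-24* in all 3 by the test and above *hpl-1*; *hpl-2* in *gsto-1* and *gst-42*, while for *gst-10* that difference was 0.54 and did not pass (adjusted p = 0.0672). *gst-10*, and the grouping of these 3 genes, were chosen after the values were seen.

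Among the 32 tested members outside the 15 shown by genotype in the plot of levels, 90 of 192 tests (46.9%) passed, near the 45.3% of tests over all identifiers and the 6 comparisons, with log2 fold changes between -1.46 and 1.30. The genotype with the highest mean was *hpl-1 his-24* for 16 of the 47 members, *hpl-1*; *hpl-2* for 15, the triple mutant for 9 and *hpl-2*; *his-24* for 7. The lowest mean was in *hpl-1 his-24* for 17, in *hpl-2*; *his-24* for 17, in *hpl-1*; *hpl-2* for 7 and in the triple mutant for 6. The range of the 4 means was 1.10 in the median member, from 0.24 in *gsto-2* to 4.80 in *gst-19*. The members that passed in no comparison were *gst-8*, *gst-22*, *gst-34*, *gst-39*, *gst-40*, *gst-43* and *gsto-2*.

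Common slides were used only for *hpl-1*; *hpl-2* animals and triple mutants, with 1 array of each on 2 slides, so their difference could be read within a slide. It had the same sign on both slides for 43 of the 47 members (91.5%), beside 83.7% of all identifiers. For *gst-38* the difference was 1.85 on 1 slide and 1.70 on the other, for *gst-13* it was 1.54 and 1.48, and for *gst-19* it was 1.43 and 1.35. *gst-25* was lower in the triple mutant by 1.65 and 2.00, and *gst-33* by 1.64 and 1.61. In the 4 arrays of these genotypes alone, 27 members (57.4%) and 33.5% of all identifiers passed. With the slide as a fixed block in those 4 arrays it was 30 members (63.8%), 15 higher and 15 lower, and 43.6% of all identifiers. When the slide was a random block in the fit of the 8 arrays, it was 17 members (36.2%) and 18.3% of all identifiers. The correlation within slides in that fit was -0.23. It takes in the slide with both *hpl-2*; *his-24* replicates, whose deviations from their own mean are opposite. The value therefore cannot decide whether arrays of a slide shift together. On the 2 common slides, each array lay beside the other-numbered replicate of the other genotype. Same-numbered arrays there, which were on different slides, had deviations with a correlation of -0.30.

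Genes that work with the GSTs were read from lists of glutathione enzymes, thioredoxin-system genes, MRP exporters and regulators of *gst-4* or *gcs-1*. Their counts against *hpl-1 his-24* stand beside the same shares of all identifiers as the family's, which were 20.2% higher and 18.8% lower for *hpl-1*; *hpl-2*, then 33.5% and 32.1% for *hpl-2*; *his-24*, then 22.9% and 19.1% for the triple mutant. Of 16 tested glutathione synthesis and recycling genes, 1 was higher and 3 lower in *hpl-1*; *hpl-2* than in *hpl-1 his-24*, 3 and 5 in *hpl-2*; *his-24*, and 2 and 2 in the triple mutant. Those that passed, 4, 8 and 4 of the 16, were in each case a smaller share than that of all identifiers. *gss-1*, for the second enzyme of glutathione synthesis, passed in no comparison, unlike *gcs-1*. The glutathione peroxidase homolog *gpx-7* was at 0.54 and 0.64 in *hpl-1 his-24* and fell by 2.45 in *hpl-2*; *his-24* (adjusted p = 0.000277), by 1.12 in the triple mutant and by 0.97 in *hpl-1*; *hpl-2*. *gpx-4*, of the same family, rose by 0.98 in *hpl-1*; *hpl-2*, by 0.74 in *hpl-2*; *his-24* and by 1.21 in the triple mutant.

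Of 9 tested thioredoxin-system genes, 2 were higher and 1 lower in *hpl-1*; *hpl-2* than in *hpl-1 his-24*, 2 and 2 in *hpl-2*; *his-24*, and 3 and 2 in the triple mutant. *trxr-1*, the cytosolic thioredoxin reductase, was at -5.07 and -5.20 in *hpl-1 his-24* and at -3.13 and -3.36 in *hpl-2*; *his-24*, a rise of 1.89 (adjusted p = 5.13e-05). It rose by 0.93 in *hpl-1*; *hpl-2* and by 0.73 in the triple mutant. *trx-5* was not well above background in *hpl-1 his-24* and was at least 6.53-fold higher in *hpl-1*; *hpl-2*, at least 4.61-fold in *hpl-2*; *his-24* animals and at least 6.59-fold in the triple mutant. These bounds set the mean of the brighter genotype against the lowest signal that counted as above background on the dim arrays.

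In *hpl-2*; *his-24*, 6 of 8 MRP exporters were higher than in *hpl-1 his-24*, beside 33.5% of all identifiers, and *mrp-3* and *mrp-4* had values of -0.40 and 0.21 that did not pass. *mrp-2* rose most, by 1.55 (adjusted p = 0.00086). The exporters *mrp-4* and *mrp-8* rose in *hpl-1*; *hpl-2*, 2 of 8 beside 20.2% of all identifiers. The triple mutant had 3 exporters (37.5%, beside 22.9%) higher and 1 lower than *hpl-1 his-24*. Relative to *hpl-2*; *his-24*, the triple mutant had lower levels of 4 of the 8 (*mrp-1*, *mrp-2*, *mrp-5* and *mrp-7*).

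The 11 regulators had log2 fold changes from -0.50 to 0.65 over all comparisons, where the median absolute change of all identifiers lay between 0.27 and 0.60. *skn-1* itself passed in 1 comparison, with the triple mutant 0.65 above *hpl-2*; *his-24*. *wdr-23*, whose product targets SKN-1 for degradation, was 0.34 above *hpl-1 his-24* in the triple mutant (adjusted p = 0.0257) and passed in no other comparison. Against *hpl-1 his-24*, 1 regulator was higher and 1 lower in *hpl-1*; *hpl-2*, while 2 were higher and 1 lower in each of the other genotypes, which makes 18.2% of the list passing in the first and 27.3% in each of the others, below the shares of all identifiers.

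Marker genes of tissues also differed between the genotypes. Of 6 intestinal markers, 5 were lower in each genotype labelled with *hpl-2* than in *hpl-1 his-24*, and 1, *elt-2*, was higher in *hpl-1*; *hpl-2*. Their mean level per array was 2.13 and 2.16 in *hpl-1 his-24*, 1.61 and 1.62 in *hpl-1*; *hpl-2* animals, 1.39 and 1.42 in the triple mutant, and 0.97 and 1.28 in *hpl-2*; *his-24*. The 6 epidermal markers averaged 0.76 and 0.84, 0.11 and 0.12, 0.62 and 0.61, and -2.18 and -0.85 in the same order of genotypes. The low mean in *hpl-2*; *his-24* came from cuticle collagen genes: *dpy-7*, *rol-6* and *bli-1* were lower there than in *hpl-1 his-24*, *bli-1* by 5.73. The 2 replicates there were far apart for *rol-6*, at -1.79 and 1.46, and for *dpy-13*, at -0.40 and 4.15. The transcription factor genes *elt-3* and *nhr-25* did not pass. In *hpl-1*; *hpl-2* 1 of the 6 epidermal markers was lower, and in the triple mutant 1 was lower and 1 higher. Yolk protein genes were lower in the triple mutant, 4 of 6 against *hpl-1 his-24* (median log2 fold change -0.89) and 5 of 6 against *hpl-2*; *his-24* (median -1.02), and 2 of 6 were lower in *hpl-1*; *hpl-2* than in *hpl-1 his-24*. The triple mutant had 3 of 5 sperm markers above *hpl-2*; *his-24* by the test (median 1.42) and 2 above *hpl-1 his-24* (median 0.83). In *hpl-1*; *hpl-2*, 2 of the 5 were likewise above *hpl-1 his-24* (median 0.06). In *hpl-2*; *his-24*, 1 was higher and 2 lower than in *hpl-1 his-24* (median -0.60). Of 5 neuron markers, 2 were higher and 1 lower in *hpl-1*; *hpl-2* than in *hpl-1 his-24*, and 2 higher and 2 lower in each of *hpl-2*; *his-24* and the triple mutant. Of 4 body wall muscle markers, 1 was higher in *hpl-1*; *hpl-2*, 1 higher and 1 lower in *hpl-2*; *his-24*, and 2 higher in the triple mutant. Of 6 oocyte and eggshell markers, 2 were higher in *hpl-1*; *hpl-2*, 2 in *hpl-2*; *his-24* and 1 in the triple mutant. These are 33.3%, 33.3% and 16.7% of them, beside 20.2%, 33.5% and 22.9% of all identifiers. Relative to *hpl-1 his-24*, 4 of 5 germ line markers were higher in *hpl-1*; *hpl-2*, 4 in *hpl-2*; *his-24* and 3 in the triple mutant. All these markers were well above background on all 8 arrays. The part of tissue make-up and developmental stage in the changes of the GST genes was not tested.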

How the data were processed

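RNA from 8 pools of whole worms was put on 1-colour Agilent arrays after amplification and Cy3 labelling. The deposited intensities came from Agilent's Feature Extraction software, which the authors ran with background subtraction, per the file headers, and without normalization between arrays. A deposited table of log2 values, which the authors had normalized by quantiles without background subtraction, served as an alternative. The normalization and test behind the paper's lists are not given in the sources used here beyond limma, which is in the submitters' processing notes.

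Spots marked as outliers were left out (92 to 238 per array), the signal was divided by the array's 75th percentile (4613 to 8501 intensity units, over a local background of 48 to 56.5) and turned to log2, and each probe received the average of its spots. On an array, 77.3% to 84.7% of probes exceeded the background by the software's test. A gene identifier was represented by its brightest probe, and 18124 of 19441 genes were matched to a symbol. The 17086 identifiers for which both arrays of 1 or more genotypes were above background, on at least 50% of a probe's spots, were fitted with limma 3.58.1 (R 4.3.3, 1 mean per genotype, 4 residual degrees of freedom), with Benjamini-Hochberg adjustment over all of them. The code was tested on simulated data. Precision is limited by the number of arrays, 2 for a genotype. The p-values measure the spread between replicate pools, as 1 estimate per gene that the 4 genotypes share. This shared estimate does not follow the wider spread of the *hpl-2*; *his-24* replicates or the narrower spread of the others.

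The genes described singly were *gcs-1*, the 4 GST genes of the study's lists, every member past an adjusted p of 0.05 and a log2 fold change beyond 1.5 in at least 1 comparison, the omega- and kappa-class genes and *gst-42* and *gst-43*. Others were added after their values were seen, among them *gst-44* and *gst-10*. The members, gene lists and tests were chosen with earlier results of these data known. Alternatives were quantile normalization, normexp background correction, other filters on dim probes, the deposited log2 table, the mean of all probes, the 4 arrays of a comparison alone, blocks by replicate number or slide, and leaving out arrays.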

Additional observations from a re-analysis of the deposited data

How the results depend on the processing

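Of 90 tests of the 15 genes shown by genotype (6 comparisons each), 64 passed, 51 of these under every alternative other than the fold threshold, and 13 were lost in at least 1; another 12 passed only in an alternative, and 0 changed direction. Adding the fold threshold of 1.5 left 5 members in *hpl-1*; *hpl-2*, 5 in *hpl-2*; *his-24* animals and 4 in the triple mutant relative to *hpl-1 his-24*, 4 and 5 in the triple mutant relative to *hpl-1*; *hpl-2* and *hpl-2*; *his-24*, and 4 in *hpl-2*; *his-24* relative to *hpl-1*; *hpl-2*. For the triple mutant relative to *hpl-2*; *his-24*, the 4 arrays alone gave 13 members (27.7%) in place of 21 (44.7%), 11 higher and 2 lower. The share of all identifiers there was 35.1% in place of 50.9%. With the 4 arrays of a comparison alone, fewer members passed in each comparison with *hpl-2*; *his-24* and more in each of the others. The share of all identifiers moved the same way in each. Without single arrays, the number of members passing against *hpl-1 his-24* ranged from 19 to 31 in *hpl-1*; *hpl-2*, from 27 to 34 in *hpl-2*; *his-24* and from 17 to 31 in the triple mutant. It ranged from 9 to 28 for the triple mutant relative to *hpl-1*; *hpl-2*, from 13 to 24 for the triple mutant relative to *hpl-2*; *his-24* and from 18 to 26 for *hpl-2*; *his-24* relative to *hpl-1*; *hpl-2*. The arrays whose absence moved a count by more than 1.5 times were *hpl-1 his-24* replicate 1 (19 in *hpl-1*; *hpl-2*), *hpl-1 his-24* replicate 2 and triple mutant replicate 2 (17 each in the triple mutant relative to *hpl-1 his-24*), and, for the triple mutant relative to *hpl-1*; *hpl-2*, both *hpl-1*; *hpl-2* replicates (12 and 9) and triple mutant replicate 2 (11), and triple mutant replicate 1 against *hpl-2*; *his-24* (13). Same-numbered replicates did not deviate together (correlation -0.30 to 0.18 between genotypes), so the numbers do not pair the samples. With the replicate number as a block, 29 (61.7%), 31 (66.0%) and 25 (53.2%) members passed in *hpl-1*; *hpl-2*, *hpl-2*; *his-24* and the triple mutant relative to *hpl-1 his-24*. The shares of all identifiers were 35.5%, 63.4% and 38.6%. In the triple mutant relative to *hpl-1*; *hpl-2* and *hpl-2*; *his-24* it was 17 (36.2%) and 18 (38.3%), beside 18.7% and 47.9%. In *hpl-2*; *his-24* relative to *hpl-1*; *hpl-2* it was 23 (48.9%), beside 48.6%. Crossing the numbers, chosen after seeing the data, gave 30 (63.8%) in the triple mutant relative to *hpl-1 his-24*, beside 54.1% of all identifiers. Leaving out both *hpl-2*; *his-24* arrays, likewise chosen after seeing the data, gave 31 members (66.0%) in *hpl-1*; *hpl-2* animals and 31 in the triple mutant relative to *hpl-1 his-24*. Of all identifiers, 47.9% and 53.3% passed there. Between these 2 genotypes it was 28 members (59.6%), beside 37.4% of all identifiers. Quantile normalization shifted the median of all identifiers by -0.11 in the triple mutant relative to *hpl-2*; *his-24*. The cause of the losses and gains in these fits was not tested.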
